A study of Mus musculus with 9 samples.

Results

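PD-L1 (Cd274) and PD-L2 (Pdcd1lg2), the ligands of the T cell inhibitory receptor PD-1, are described here with 6 further surface molecules through which antigen-presenting cells instruct T cells: Cd80, Cd86, Cd40, Icosl, Cd276 and Vsir. These 8 genes were taken by symbol from the 16200 genes of the counts table, and all 8 were found and passed the filter on low counts. They were followed in wild-type (WT) mouse macrophages grown from bone marrow for 6 days with 10% L929 supernatant as the source of macrophage growth factor. Of 9 polyA RNA libraries, 3 came from untreated cells, 3 from cells given IL-4 at 20 ng/ml for 12 h and 3 from cells given IL-27 at 100 ng/ml for 6 h. The labels state both cytokines in 1 text common to all samples, so that added IL-4 in the IL-27 cells is neither stated nor denied. Dose and time differ between the cytokines, so a contrast of IL-27 with IL-4 also contrasts 6 h with 12 h. The labels give no strain, sex or age of the mice, and do not say if replicates were different mice or dishes. The p-values therefore reflect the spread within groups of 3 libraries, estimated from all 9 libraries together, and that spread may be purely technical.

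T cells need a signal beside the antigen, and the B7 family on macrophages and dendritic cells supplies or withholds it. CD80 and CD86 bind the activating receptor CD28 and the inhibitory receptor CTLA-4, ICOS ligand binds ICOS, and PD-L1 and PD-L2 bind PD-1 and restrain activated T cells. CD276 (B7-H3) and VISTA (Vsir) are B7 relatives that mostly restrain T cells, and CD40, of the TNF receptor family, takes a signal from T cells through CD40 ligand and licenses the cell that carries it. In macrophages Cd274 is a well-known target of interferon signalling, whereas Pdcd1lg2 is a classical target of IL-4 and STAT6.

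Libraries held 34577188 to 37951827 counts, and 12587 genes were tested. Levels are CPM, counts relative to library size after TMM scaling, with mean ± SD over n = 3 libraries, and log2 fold changes are from edgeR with their standard error. Untreated replicate 2 and IL-4 replicate 1 differed most from their fellow replicates. The chi-square per gene was 96.3 to 121 in replicate pairs that included either library and 5.53 to 9.11 in the remaining pairs. Their deviations from their group means ran together, with r = 0.900 across 9553 genes, the highest among pairs of libraries from different groups. The 8 macrophage markers (Adgre1, Csf1r, Cd68, Itgam, Mertk, Lyz2, Cd14 and Fcgr1) summed to 23087 to 31788 CPM in untreated, 14504 to 18107 in IL-4 and 24262 to 26336 in IL-27 libraries. Lyz2 was the largest part, with means of 18937 CPM untreated, 9407 under IL-4 and 20007 under IL-27. In the same order Csf1r stood at 2729, 2314 and 1414, Cd68 at 1587, 1559 and 1586, and Itgam at 1421, 1529 and 1245. Adgre1 stood at 878, 783 and 551, and Cd14 at 359, 57.8 and 211. Mertk stood at 206, 119 and 91.5, and Fcgr1 at 87.2, 32.7 and 69.1. The 8 dendritic cell markers matter here because dendritic cells carry the same ligands. They summed to 1.67 to 3.10 CPM in untreated, 1.09 to 1.88 in IL-4 and 1.93 to 2.73 in IL-27 libraries. B cell markers summed to 2.73 to 3.55, 1.37 to 2.55 and 1.23 to 1.61 CPM in the same order. Some of the genes followed here, such as Icosl and Cd40, had levels of similar size. Fibroblast markers, led by Col1a1 and Col1a2, summed to 679.8 to 772 CPM in untreated, 508 to 713 in IL-4 and 1044 to 1306 in IL-27 libraries, and the part of these marker sums in the results below was not tested. In bulk RNA, fewer cells expressing a gene and less of its RNA per cell cannot be told apart.

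The PD-1 ligands differed in which cytokine raised them most. IL-4 raised Pdcd1lg2 and, modestly, Cd274, while IL-27 raised Cd274 and gave no call for Pdcd1lg2. Of the 8 genes, IL-4 raised 4 (Cd274, Pdcd1lg2, Cd40 and Cd276) and lowered 4 (Cd80, Cd86, Icosl and Vsir), where 25.0% of all tested genes were called, 12.9% up and 12.0% down. IL-27 raised 2 (Cd274 and Cd86), lowered 3 (Icosl, Cd276 and Vsir) and left 3 without a call, against 29.2% of all tested genes called, 14.0% up and 15.1% down. Between IL-27 and IL-4, 3 genes were higher under IL-27 (Cd274, Cd80 and Cd86) and 3 lower (Pdcd1lg2, Cd40 and Cd276), against 39.8% of all tested genes called, with 18.8% called higher and 21.0% lower. The median size of the log2 fold change among the 8 genes was 1.13 under IL-4 and 0.74 under IL-27, and among all tested genes 0.29 and 0.33. The contrasts with untreated cells share the untreated libraries.

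**Figure D1:**
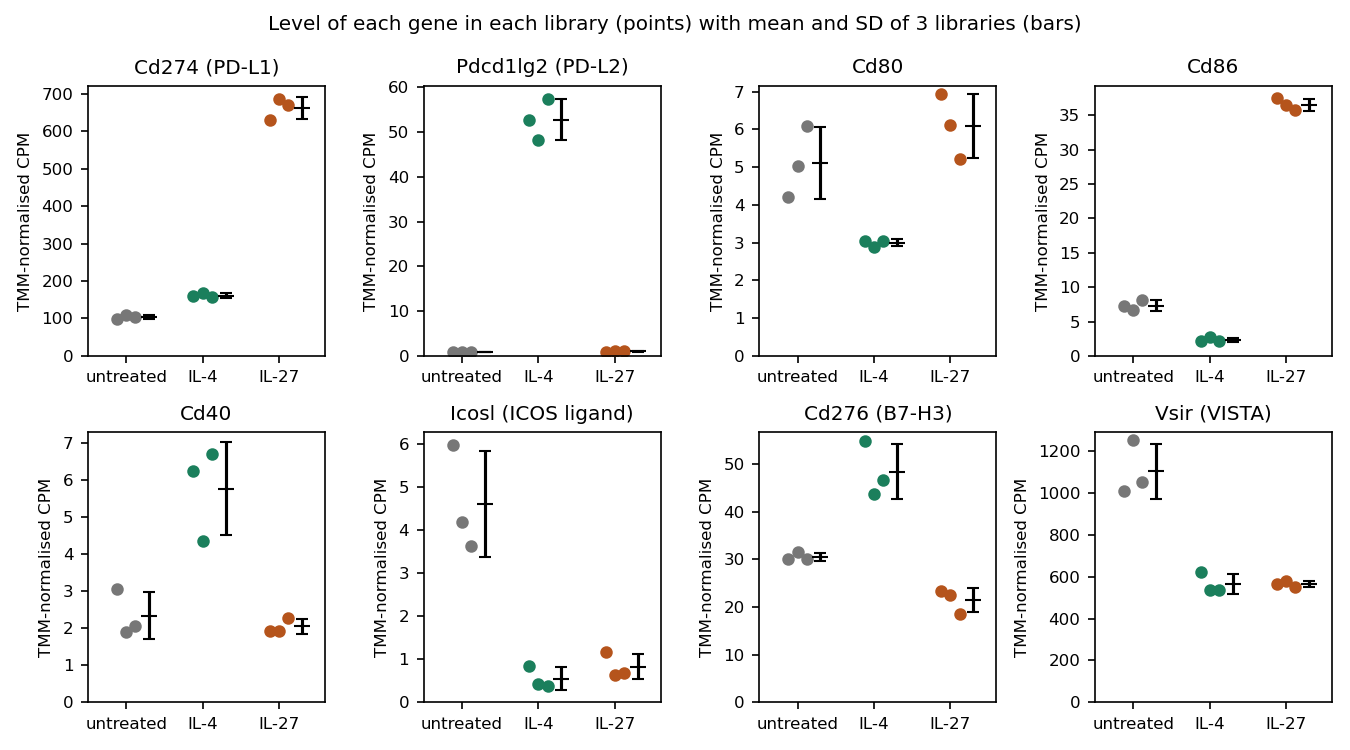
TMM-normalised CPM (vertical axes, from 0) of the 8 genes in each of the 3 groups, with points for libraries and bars for the mean and SD of 3. Pdcd1lg2 stands apart in the IL-4 libraries, Cd274 and Cd86 in the IL-27 libraries, and Icosl and Vsir in the untreated libraries.

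Cd274 (NCBI gene 60533) encodes PD-L1. It stood at 98.2, 108 and 104 CPM in untreated replicates 1, 2 and 3, at 159, 169 and 156 CPM in the IL-4 replicates, and at 629, 686 and 670.0 CPM in the IL-27 replicates. No group overlapped another, and every IL-27 library was above every IL-4 library. IL-4 raised Cd274 by 0.64 ± 0.08 on the log2 scale (1.56-fold, edgeR adjusted p = 0.000301). IL-27 raised it by 2.68 ± 0.08 (6.39-fold, edgeR adjusted p = 8.72e-08). The level there exceeded that under IL-4 by 2.04 ± 0.08 (4.10-fold, edgeR adjusted p = 9.72e-08). There were 91 tested genes with a larger rise under IL-27 and 1287 with a larger rise under IL-4. In the GENCODE vM21 annotation the Cd274 exons overlap an antisense gene model on the opposite strand. No source used here states whether counting used strand, so reads of that model cannot be told apart from those of Cd274.

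Pdcd1lg2 (NCBI gene 58205) encodes PD-L2, the second PD-1 ligand, whose gene is the next tested gene after Cd274 on chromosome 19. Its counts were 30, 30 and 28 in the untreated replicates, 1796, 1932 and 2258 in the IL-4 replicates, and 32, 37 and 40 in the IL-27 replicates. In CPM these are 0.834, 0.904 and 0.781 untreated, 52.7, 48.2 and 57.5 under IL-4, and 0.873, 1.02 and 1.09 under IL-27. The IL-4 libraries lay far above all others, and the untreated and IL-27 ranges overlapped. The rise under IL-4 was 5.97 ± 0.15 on the log2 scale (62.7-fold, edgeR adjusted p = 3.13e-08), and 13 of the tested genes rose more. Under IL-27 the log2 fold change was 0.25 with a 95% interval of -0.12 to 0.61 (edgeR adjusted p = 0.367). The summed counts were 109 under IL-27 and 88 untreated. They gave a ratio of 1.19 with an exact 95% counting interval of 0.889 to 1.59, which covers counting error only. The standard error of the IL-27 log2 fold change was 0.162 in this edgeR fit, 0.247 in DESeq2 and 0.315 in edgeR with only the 2 groups. For the rise under IL-4 these were 0.147, 0.205 and 0.152, so the edgeR precision for Pdcd1lg2 may be overstated.

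Outside the IL-4 libraries Pdcd1lg2 stood at a small share of its IL-4 level. In unscaled CPM the untreated level was 1.54% and the IL-27 level 1.81% of the IL-4 level. Among 8391 genes with at least 10 CPM under IL-4 and counts in every untreated library, the lowest untreated share was 0.843%, for the adhesion gene Cdh1 (0.627% in IL-27 libraries), and 7 genes stood at or below the share of Pdcd1lg2, itself included. Whether part of the untreated and IL-27 counts came from other libraries was not tested. Subtracting the lowest share from every untreated and IL-27 library moved the rise of Pdcd1lg2 under IL-4 from 5.97 to 7.13 on the log2 scale. Its difference between IL-27 and IL-4 moved from -5.72 to -6.62. Such a subtraction can only widen these differences, so it is no check of them. The 0.843% taken from the IL-27 libraries also exceeds the 0.627% that Cdh1 held there.

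The sequences just upstream of the PD-1 ligand genes are shown because these neighbours differed in which cytokine raised them most. RefSeq promoter sequences (build GRCm38.p6) were matched for 6 of the 8 genes, all but Cd86 and Cd40, and the 250 bases before the start site were searched on both strands for 4 motifs. The STAT motifs were TTC and GAA separated by any 3 bases, and TTC and GAA separated by any 4 bases, the spacing that STAT6 prefers. Both read the same on either strand. The others were GAAA and GAAA separated by any 2 bases (core of the interferon response element) and GGG and TTTCC separated by any 2 bases (kappa-B type). Capitals mark a match, and the 2 sequences, on the plus strand of chr19:29410669-29410918 and chr19:29367188-29367437, read 5′ to 3′:
Pdcd1lg2: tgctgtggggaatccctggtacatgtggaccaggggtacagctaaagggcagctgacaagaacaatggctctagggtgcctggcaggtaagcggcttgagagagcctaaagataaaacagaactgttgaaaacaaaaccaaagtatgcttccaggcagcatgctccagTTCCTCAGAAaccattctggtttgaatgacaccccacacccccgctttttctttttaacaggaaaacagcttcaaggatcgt
Cd274: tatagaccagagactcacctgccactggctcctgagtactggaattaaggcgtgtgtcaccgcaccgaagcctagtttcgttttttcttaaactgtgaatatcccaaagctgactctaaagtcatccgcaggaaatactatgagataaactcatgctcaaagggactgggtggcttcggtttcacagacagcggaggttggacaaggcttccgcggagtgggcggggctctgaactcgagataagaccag

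Pdcd1lg2 held 1 match, TTCCTCAGAA, at positions -82 to -73 from the start site, to the motif with the 4-base spacer. That motif is found in 5.85% of the 32851 RefSeq promoter windows of the same length. No letters matching any of the 4 motifs were in the windows of Cd274, Cd80, Icosl, Cd276 or Vsir. The motif with the 3-base spacer is in 7.02% of all windows, the interferon response core in 2.98% and the kappa-B type in 1.41%. The windows differed in composition, with 23 CpG in Icosl, 29 in Cd276, 11 in Cd274, 9 in Vsir and 3 each in Pdcd1lg2 and Cd80.

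The balance of the PD-1 ligands was followed inside each library, as the ratio of counts per base of gene length, which needs no scaling between libraries. Cd274 exceeded Pdcd1lg2 by 98.2-, 100.0- and 111-fold in the untreated replicates, by 2.52-, 2.92- and 2.27-fold in the IL-4 replicates, and by 602-, 561- and 511-fold in the IL-27 replicates. Cd274 was thus the more abundant transcript in all 9 libraries, and the 3 groups did not overlap. On the log2 scale the ratio of Pdcd1lg2 to Cd274 was -6.69 ± 0.10 untreated, -1.35 ± 0.18 under IL-4 and -9.12 ± 0.12 under IL-27 (SD, n = 3 each). An exact permutation test over all assignments of the 9 libraries to the groups gave p = 0.00357 (adjusted p = 0.00357 over 2 ratios), the smallest it can give.

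Cd80 (NCBI gene 12519) and Cd86 (12524), the ligands shared by CD28 and CTLA-4, lie on chromosome 16. Cd86 stood at 7.26, 6.63 and 8.09 CPM in the untreated replicates, 2.11, 2.70 and 2.11 under IL-4, and 37.5, 36.4 and 35.7 under IL-27. Its groups did not overlap, and IL-4 and IL-27 moved it in opposite directions. It fell by 1.66 ± 0.14 on the log2 scale under IL-4 (3.17-fold, edgeR adjusted p = 2.66e-05) and rose by 2.32 ± 0.13 under IL-27 (4.99-fold, edgeR adjusted p = 2.03e-06). The direct contrast of IL-27 with IL-4 was 3.98 ± 0.14 (15.8-fold, edgeR adjusted p = 6.50e-08).

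Cd80 fell under IL-4, and no change under IL-27 passed the test. It stood at 4.20, 5.03 and 6.08 CPM untreated, 3.05, 2.90 and 3.05 under IL-4, and 6.93, 6.12 and 5.22 under IL-27. All IL-4 libraries were below all others, while the untreated and IL-27 libraries overlapped. The fall under IL-4 was 0.77 ± 0.19 on the log2 scale (1.70-fold, log2 fold change -0.77, edgeR adjusted p = 0.0133), and the call was lost without untreated replicate 3 (edgeR adjusted p = 0.0549, against a lowest of 0.0124 on leaving out 1 library). Under IL-27 the log2 fold change was 0.26, with a 95% interval of -0.15 to 0.66 (edgeR adjusted p = 0.321). IL-27 libraries exceeded IL-4 libraries by 1.02 ± 0.18 (2.03-fold, edgeR adjusted p = 0.00158).

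Per base of gene length, Cd86 exceeded Cd80 by 2.00-, 1.53- and 1.54-fold in the untreated replicates and by 6.27-, 6.89- and 7.93-fold in the IL-27 replicates. In the IL-4 replicates the ratio of Cd80 to Cd86 was 1.25, 0.927 and 1.25, so the pair stood near parity. The log2 ratio of Cd80 to Cd86 was -0.75 ± 0.22 untreated, 0.18 ± 0.25 under IL-4 and -2.81 ± 0.17 under IL-27 (SD, n = 3 each). The 3 groups did not overlap, and the exact permutation test gave p = 0.00357 (adjusted p = 0.00357), again its smallest value.

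**Figure D2:**
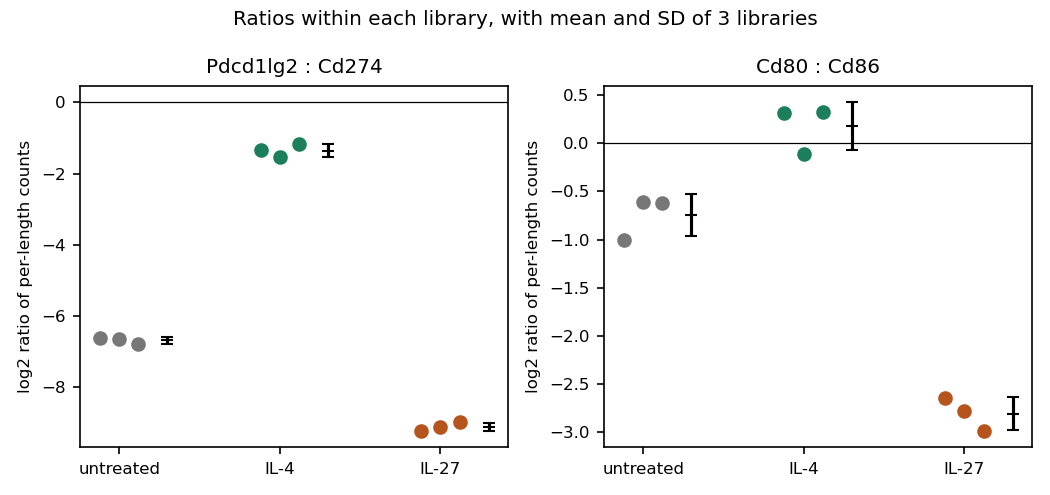
Log2 ratio of counts per base of gene length (vertical axes) for Pdcd1lg2 to Cd274 and Cd80 to Cd86, with points for libraries and bars for the mean and SD of 3. Both ratios are highest in the IL-4 libraries, at -1.35 and 0.18 on average, and lowest in the IL-27 libraries, at -9.12 and -2.81.

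Icosl (NCBI gene 50723), which encodes the ligand of ICOS, a receptor that supports follicular helper T cells, fell under both cytokines. Its counts were 215, 139 and 130 in the untreated replicates, 29, 17 and 15 under IL-4, and 43, 23 and 25 under IL-27. Every treated library was below every untreated one. In CPM it went from 4.60 ± 1.23 untreated to 0.552 ± 0.259 under IL-4 and 0.830 ± 0.298 under IL-27. The log2 fold changes were -3.07 ± 0.39 under IL-4 (edgeR adjusted p = 0.000342) and -2.46 ± 0.37 under IL-27 (edgeR adjusted p = 0.000811). There were 31 tested genes that fell further under IL-4, and 94 under IL-27. The contrast of IL-27 with IL-4 was 0.60 ± 0.40 (edgeR adjusted p = 0.265). IL-4 replicate 1 had 54.0% more Icosl than its group mean. Without it and untreated replicate 2 that contrast was 1.03 (edgeR adjusted p = 0.0492).

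Vsir (NCBI gene 74048) encodes VISTA, a checkpoint molecule typical of resting myeloid cells, and it was the most abundant of the 8 in untreated cells. It stood at 1006, 1251 and 1051 CPM untreated, 619.8, 535 and 536 under IL-4, and 567, 577 and 549 under IL-27. Every treated library was below every untreated one, and the treated groups overlapped. The falls were nearly equal, at -0.97 ± 0.10 on the log2 scale under IL-4 (edgeR adjusted p = 0.000127) and -0.97 ± 0.10 under IL-27 (edgeR adjusted p = 9.88e-05). The difference between IL-27 and IL-4 was 0.00, with a 95% interval of -0.23 to 0.23 (edgeR adjusted p = 0.992), and its sign turned without a filter on low counts and on leaving out some single libraries. Untreated replicate 2, which stood apart, had the highest Vsir level of all 9.

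Cd276 (NCBI gene 102657), which encodes B7-H3, went up under IL-4 and down under IL-27. It stood at 30.0, 31.5 and 30.0 CPM untreated, 54.8, 43.8 and 46.6 under IL-4, and 23.3, 22.6 and 18.6 under IL-27. The groups did not overlap. The log2 fold changes were 0.67 ± 0.12 under IL-4 (1.59-fold, edgeR adjusted p = 0.00275) and -0.51 ± 0.12 under IL-27 (edgeR adjusted p = 0.0105), and the direct contrast was -1.17 ± 0.12 (edgeR adjusted p = 3.79e-05). Fibroblasts also express Cd276, and the summed fibroblast markers given above were highest in the IL-27 libraries, where Cd276 was lowest. Whether fibroblasts had a part in the Cd276 levels was not tested. Exons of Cd276 overlap another gene model on the opposite strand in GENCODE vM21, so part of its reads cannot be told apart from that model without strand.

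Cd40 (NCBI gene 21939), the receptor for CD40 ligand on chromosome 2, responded to IL-4. Its counts were 110, 63 and 74 untreated, 213, 174 and 263 under IL-4, and 71, 70 and 83 under IL-27. All IL-4 libraries were above all others, and untreated and IL-27 libraries overlapped. It rose by 1.30 ± 0.24 on the log2 scale under IL-4 (2.46-fold, edgeR adjusted p = 0.00352). Under IL-27 the log2 fold change was -0.20, with a 95% interval of -0.75 to 0.36 (edgeR adjusted p = 0.596), and its sign turned without untreated replicate 1. IL-27 libraries were lower than IL-4 libraries by 1.49 on the log2 scale (log2 fold change -1.49 ± 0.24, edgeR adjusted p = 0.000854).

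**Figure D3:**
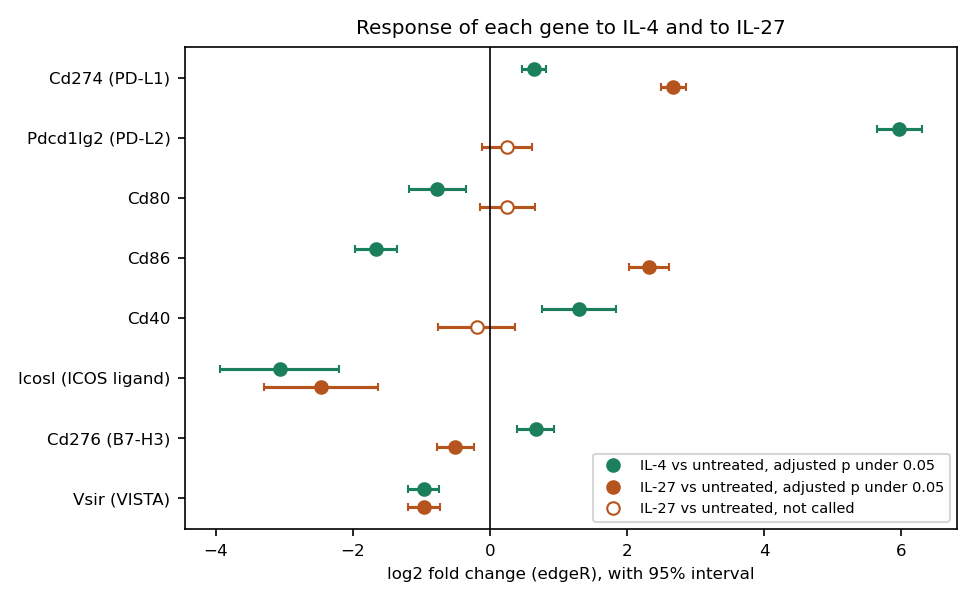
Log2 fold change against untreated cells (horizontal axis) with its 95% interval for each of the 8 genes under IL-4 and under IL-27, where filled points have an adjusted p under 0.05. Pdcd1lg2 lies at 5.97 under IL-4 and Cd274 at 2.68 under IL-27, Cd86 and Cd276 lie on opposite sides of 0, and Icosl and Vsir lie below 0 under both.

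Levels of different genes were set side by side in the deposited FPKM, which corrects for gene length. In untreated cells Vsir led with 225 ± 10.6 FPKM, followed by Cd274 at 25.2 ± 0.990, Cd276 at 9.49 ± 0.391 and Cd86 at 2.59 ± 0.405. Cd80 (1.55 ± 0.315), Icosl (1.52 ± 0.463) and Cd40 (1.32 ± 0.419) came next with overlapping ranges between neighbours, and Pdcd1lg2 was last at 0.244 ± 0.00929. Vsir alone made up 84.3% of the summed FPKM of the 8 genes.

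Under IL-4 the order was Vsir (119 ± 2.87 FPKM), Cd274 (40.4 ± 3.22), Pdcd1lg2 (15.8 ± 1.79), Cd276 (15.4 ± 0.949), Cd40 (3.31 ± 0.715), Cd80 (0.937 ± 0.0520), Cd86 (0.837 ± 0.151) and Icosl (0.183 ± 0.0737). Pdcd1lg2 had moved from last to rank 3, although its range overlapped that of Cd276, as did the ranges of Cd80 and Cd86. Under IL-27 Cd274 took the first place with 159 ± 5.98 FPKM, above Vsir at 114 ± 2.25. Cd86 followed at 12.7 ± 0.344, then Cd276 at 6.60 ± 0.769, Cd80 at 1.82 ± 0.258 and Cd40 at 1.13 ± 0.112. Pdcd1lg2 (0.286 ± 0.0320) and Icosl (0.270 ± 0.0982) closed the order with overlapping ranges. Cd274 accounted for 53.7% of the summed FPKM under IL-27, 20.6% under IL-4 and 9.41% untreated.

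**Figure D4:**
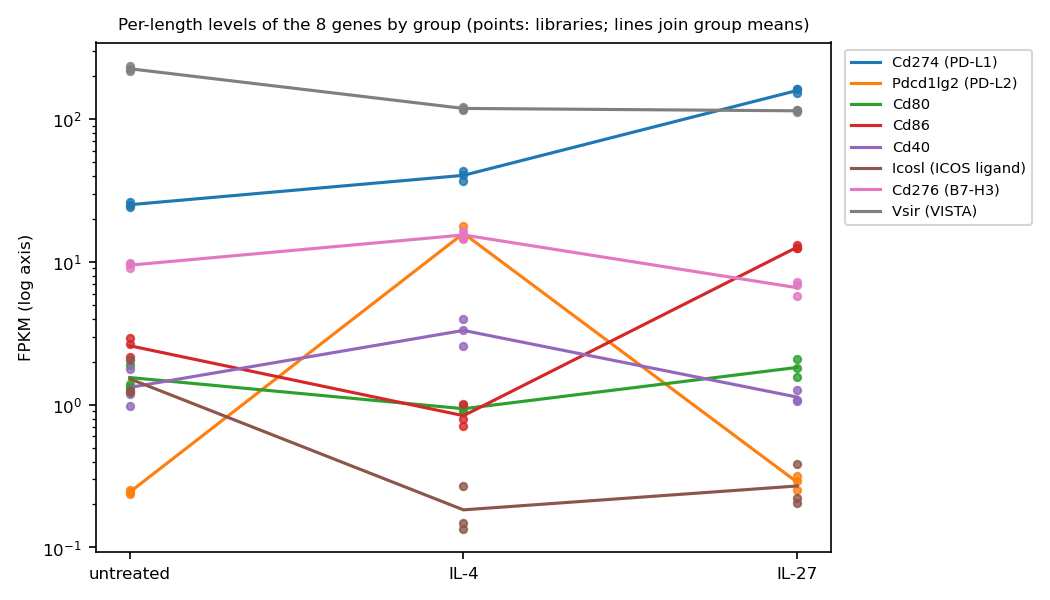
Deposited FPKM (vertical log axis) of the 8 genes in each of the 3 groups, with points for libraries and lines joining group means. Cd274 crosses above Vsir under IL-27 (159 against 114 FPKM), and Pdcd1lg2 climbs from 0.244 to 15.8 FPKM under IL-4.

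Around these 8 genes, 6 lists of the same biology were read, as counts of calls over all tested genes. Among regulators known to act on PD-L1 expression (IRFs, JAKs, interferon-gamma receptors, SOCS proteins, NF-kappa-B factors, Myc, Hif1a and others), 5 of 18 rose and 2 fell under IL-4, and 9 rose and 2 fell under IL-27. Of all tested genes, 12.9% rose and 12.0% fell under IL-4, and 14.0% rose and 15.1% fell under IL-27. The list medians were -0.05 and 0.28 on the log2 scale, against -0.01 and 0.00 over all tested genes. Without the libraries that stood apart, 6 rose and 3 fell under IL-4, and 11 rose and 4 fell under IL-27, in fits that called 46.4% and 49.5% of all tested genes. These list counts without both libraries, here and below, were added after seeing the data. Under IL-27 Irf1 and Ifngr1 were among the regulators with the smallest p-values. Irf1, which binds the PD-L1 promoter, went from 60.9 ± 12.1 to 305 ± 18.1 CPM (edgeR adjusted p = 3.92e-06). Ifngr1, the ligand-binding chain of the interferon-gamma receptor, fell from 262 ± 3.18 to 115 ± 2.29 CPM (edgeR adjusted p = 2.45e-06).

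Under IL-4 the leading regulators were Irf4, Socs1 and Myc. Irf4, a factor linked to alternative activation, went from 1.77 ± 0.629 to 52.0 ± 1.99 CPM (edgeR adjusted p = 6.99e-07), and stood at 0.794 ± 0.0946 CPM under IL-27. Socs1, a feedback inhibitor of JAKs, rose by 3.82 ± 0.22 on the log2 scale and the proliferation factor Myc by 2.05 ± 0.14 (edgeR adjusted p = 2.20e-06 and 6.40e-06). Stat6, which carries the IL-4 signal, had a log2 fold change of -0.12 ± 0.10 under IL-4 and did not pass the test (edgeR adjusted p = 0.411).

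Of the other checkpoint and butyrophilin ligands, 14 of 20 were tested, and 1 rose and 5 fell under IL-4, while 3 rose and 3 fell under IL-27, against 25.0% and 29.2% of all tested genes called. Without the libraries that stood apart these counts were 3 and 6, and 6 and 7, against 46.4% and 49.5% called. Fgl2, a secreted fibrinogen-like protein that restrains T cells, went from 23.8 ± 3.56 CPM to 35.1 ± 3.96 under IL-4 and 128 ± 7.77 under IL-27 (edgeR adjusted p = 0.0108 and 1.97e-06). Cd200, an inhibitory ligand for myeloid cells, fell under IL-4 from 66.6 ± 8.69 to 26.8 ± 4.96 CPM (edgeR adjusted p = 0.000158). It rose under IL-27 to 106 ± 0.991 CPM (edgeR adjusted p = 0.00631). Tnfrsf14, the partner of BTLA, fell 2.29-fold under IL-4 (edgeR adjusted p = 0.000108), and the poliovirus receptor gene Pvr, a ligand of TIGIT, rose 1.60-fold under IL-27 (edgeR adjusted p = 0.00994).

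Of 7 TNF-family costimulatory ligands, 4 were tested. Under IL-27 2 rose and 0 fell, and under IL-4 0 rose and 1 fell, where 29.2% and 25.0% of all tested genes were called. Without the libraries that stood apart 3 rose under IL-27, against 49.5% of all genes called. Tnfsf9, the ligand of 4-1BB, went from 1.29 ± 0.295 to 3.02 ± 0.435 CPM under IL-27, and Tnfsf8, the CD30 ligand, from 0.204 ± 0.284 to 1.70 ± 0.145 CPM (edgeR adjusted p = 0.00708 and 0.0176). Tnfsf15, which binds death receptor 3, fell under IL-4 from 1.17 ± 0.530 to 0.356 ± 0.114 CPM (edgeR adjusted p = 0.0137).

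Among 11 genes of CD40 signalling, all tested, 1 rose and 5 fell under IL-4, and 1 rose and 1 fell under IL-27, against 25.0% and 29.2% of all tested genes called. The adaptor Traf5 went up with Cd40 under IL-4, from 14.2 ± 1.20 to 38.4 ± 5.82 CPM (edgeR adjusted p = 4.37e-05). The ubiquitin ligase Birc3 and the non-canonical NF-kappa-B subunit Relb fell, 1.71-fold and 2.26-fold (edgeR adjusted p = 0.000429 and 0.000589). Under IL-27 the NF-kappa-B inhibitor Tnfaip3 rose 1.36-fold and Birc3 fell 1.44-fold (edgeR adjusted p = 0.00197 and 0.00362). Without the libraries that stood apart, 1 rose and 8 fell under IL-4, and 2 rose and 2 fell under IL-27, against 46.4% and 49.5% of all genes called.

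Of 9 genes for handling of the PD-L1 protein, 3 rose and 3 fell under IL-4, and 1 rose and 1 fell under IL-27, against 25.0% and 29.2% of all tested genes called. Without the libraries that stood apart 2 rose and 3 fell under IL-27, against 49.5% called. Cmtm6, which protects PD-L1 from degradation, was lower under both, going from 205 ± 18.5 CPM to 157 ± 11.5 under IL-4 and 157 ± 9.60 under IL-27 (edgeR adjusted p = 0.0170 and 0.0133). Its relative Cmtm4 fell 1.44-fold under IL-4, and Adam17, a sheddase of surface proteins, 1.25-fold (edgeR adjusted p = 0.00265 and 0.00961). The 3 that rose under IL-4 were Adam10, also a sheddase, by 0.59 ± 0.15 on the log2 scale, the ubiquitin ligase Stub1 by 0.55 ± 0.15 and the signalosome subunit Cops5 by 0.30 ± 0.09 (edgeR adjusted p = 0.0201, 0.0258 and 0.0367). Hip1r, which sends PD-L1 to lysosomes, rose under IL-27 from 0.238 ± 0.0414 to 0.766 ± 0.365 CPM (edgeR adjusted p = 0.0390).

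**Figure D5:**
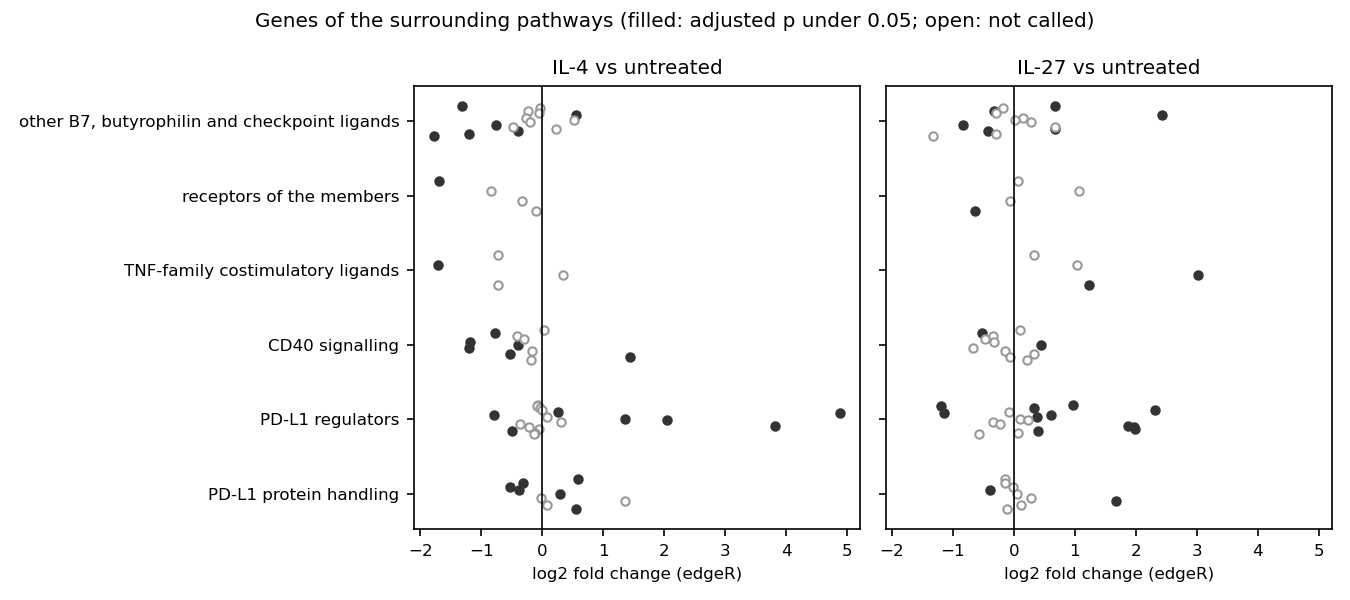
Log2 fold change (horizontal axes) of each tested gene in the 6 surrounding lists, for IL-4 and for IL-27 against untreated cells, where filled points have an adjusted p under 0.05. In the regulator list Irf4 and Socs1 lie furthest right under IL-4, and Irf1 under IL-27.

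Of 8 receptors of these ligands, 4 were tested (Cd28, Rgmb, Selplg and Igsf11), with 0 up and 1 down under each cytokine, against 25.0% of all tested genes called under IL-4 and 29.2% under IL-27. Without the libraries that stood apart 2 were down under IL-4, against 46.4% called. Cd28, the activating receptor of CD80 and CD86, is best known from T cells, yet stood at 89.9 ± 24.3 CPM untreated, 27.7 ± 7.91 under IL-4 and 94.7 ± 4.17 under IL-27. The fall under IL-4 was called (3.24-fold, edgeR adjusted p = 0.000680), and the log2 fold change under IL-27 was 0.08 ± 0.23 (edgeR adjusted p = 0.837). The T cell genes Cd3e, Cd3d and Cd8a had 3, 6 and 1 counts in all 9 libraries together, Cd2 had 42 and Lck 181. Which cells the Cd28 counts came from was not tested. Selplg, one of the partners reported for VISTA, fell under IL-27 from 239 ± 64.6 to 154 ± 3.17 CPM (edgeR adjusted p = 0.0446).

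Genes with the most similar pattern were sought by Pearson correlation of log2 CPM over the 9 libraries, among 9400 named genes with a mean of at least 5 CPM. The 9 points share the 3 group means, so high values are common and carry no p. For Cd274 they were Pdgfa (r = 0.995), Epb41l2 (0.993) and the checkpoint ligand Fgl2 (0.990). For Pdcd1lg2 they were Tmem26 (0.996), Il6st, the shared receptor chain of the IL-6 family and IL-27 (0.996), and the mannose receptor Mrc1 (0.995). For Cd86 they were Aph1c (0.998), Tmod1 (0.996) and Tnfaip3 (0.996), and for Cd80 Mxra8 (0.973), Rnf19a (0.968) and Epb41l3 (0.953). Icosl was nearest to Neurl3 (0.974), Gpr132 (0.972) and Zbtb7a (0.967). Vsir was nearest to the IL-10 receptor gene Il10ra (0.995), Glipr1 (0.995) and Dennd5a (0.994). Cd276 was nearest to Exo5 (0.990) and to the cell cycle genes E2f7 (0.988) and Pkmyt1 (0.988), and Cd40 to Timeless (0.963), Banf1 (0.961) and Uba2 (0.961). Among the 8 themselves, the closest pairs were Icosl with Vsir (0.937), Pdcd1lg2 with Cd40 (0.934) and Cd80 with Cd86 (0.878), and the most opposed was Cd86 with Cd276 (-0.962).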

How the data were processed

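The authors deposited whole-number counts per gene and library. Per the submitters' processing notes, the tools and build were HTSeq, HISAT2, fastp and GRCm39, with no version or option for any tool. FPKM values were deposited by the authors too. Counts scaled to their library total and divided by FPKM gave gene lengths whole within 1e-06 bases for 100% of values. Both tables thus hold the same counts. Counts were fitted in R 4.3.3 with edgeR 4.0.16 (quasi-likelihood, 9 libraries, group term, TMM, filterByExpr with a minimum count of 10). A gene was called at an adjusted p (Benjamini-Hochberg, over all tested genes) below 0.05. Standard errors divide the absolute log2 fold change by the root of F and are approximate for genes with few counts. The procedure was tested on simulated counts drawn independently for each library. They hold no shared deviation like that of untreated replicate 2 and IL-4 replicate 1, so that test does not cover it. The outcome of that test is not given here. The 8 genes, the lists and the tests were chosen with earlier results of these data known. Named genes are all 8, up to 3 called genes per list and comparison with the smallest p, and the 3 of most similar pattern per gene, and others were chosen after their values were seen. One gene that this rule names is not reported here. Alternatives were other scalings and filters, DESeq2 1.42.0, 2 groups per fit, a replicate block and libraries left out.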

Additional observations from a re-analysis of the deposited data

How the results depend on the processing

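The 24 contrasts of the 8 genes were refitted under 410 alternatives in all. Direction and call held in 401, 1 lost its call (Cd80 under IL-4 without untreated replicate 3), 1 gained one (Icosl between IL-27 and IL-4 without untreated replicate 2 and IL-4 replicate 1) and 7 changed sign. Some of the 410 fits could hardly fail. Leaving out a library of the group outside a contrast barely bears on its estimate, and the subtractions for Pdcd1lg2 could only widen its contrasts. The sign changes were in contrasts that were not called. Cd40 under IL-27 ranged from -0.33 to 0.0448 on leaving out 1 library, and Vsir between IL-27 and IL-4 from -0.0363 to 0.0728, and it was -0.01105 without a filter on low counts. Leaving out untreated replicate 2 and IL-4 replicate 1 together raised the count of all genes called from 3145 to 5909 under IL-4 and from 3670 to 6313 under IL-27, and the cause was not tested. With 1 library left out at a time these counts ranged from 2313 to 3666 and from 2580 to 4618. Deviations of same-numbered libraries correlated between -0.80 and 0.67 across 9553 genes, and those of differently numbered libraries between -0.80 and 0.90. The 2 libraries that stood apart, with different numbers, deviated together, so these values cannot say whether the replicate numbers pair the libraries. With the replicate block 8, 5 and 6 of the 8 genes were called under IL-4, under IL-27 and between them, as without it, and 2308, 2899 and 4216 of all genes. With the block the permutation p of both ratios was 0.0278, the smallest that the blocked test can give. Icosl, Cd40, Pdcd1lg2 and Cd86 have 110 counts or fewer in several libraries and Cd80 in 1, which widens their intervals.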

Other observations

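The tested genes on either side of the PD-1 ligand pair were read for comparison, chosen after values were seen and by position in the RefSeq order of GRCm38.p6. In that order Jak2, Insl6, Plgrkt, Cd274, Pdcd1lg2, Ric1 and Ermp1 follow each other. Jak2, a kinase of cytokine receptors, had a log2 fold change of 1.36 ± 0.18 under IL-4 (edgeR adjusted p = 0.000436), and Insl6 rose by 0.56 ± 0.17 (edgeR adjusted p = 0.0368). Plgrkt, which lies between Insl6 and Cd274, had log2 fold changes of 0.20 ± 0.16 under IL-4 and 0.14 ± 0.16 under IL-27, and neither passed the test (edgeR adjusted p = 0.388 and 0.538). Under IL-27 Ric1, the next gene after Pdcd1lg2, rose by 0.33 ± 0.08 (edgeR adjusted p = 0.0103), while Jak2 (0.11 ± 0.18) and Ermp1 (-0.33 ± 0.12) did not pass (edgeR adjusted p = 0.689 and 0.0548). None of these 5 neighbours moved by as much as Pdcd1lg2 under IL-4 or Cd274 under IL-27.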
